A study of Bos taurus with 48 samples.

Results

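The change in leukocyte gene expression between d 0 and d 1 was compared between weaned and control beef calves: for each gene, the change within a calf from d 0 to d 1 in 6 weaned calves, minus the same change in 6 control calves. The members were the 24 libraries of d 0 and d 1 among the 48 libraries of the series, taken by calf number, treatment and day from the sample names and labels. A gene that moved alike in both treatments gives a difference of 0 in this comparison, whereas one that moved in opposite ways, or in one treatment only, does not. All calves were intact, spring-born male beef calves, labelled as of Continental breed and named as Simmental in the study's methods, and they were bled in the autumn at housing. On d 0 the blood was taken before housing. After that bleed the dam was taken from weaned calves (1758, 1762, 1769, 1770, 1773 and 1809) in a single step, and they shared pens with further weaned calves. Control calves (1755, 1759, 1763, 1789, 1802 and 1803) kept the dam in their pen. Calves of both groups had been vaccinated against bovine respiratory syncytial virus and infectious bovine rhinotracheitis virus beforehand. Both were housed after d 0, so the move indoors is shared by the groups. Their pens differed in company, and each pen held calves of a single treatment, so pen and treatment cannot be told apart. Pen did not enter the tests. The RNA came from total leukocytes left after lysis of red cells, that is, from a mixture of neutrophils, lymphocytes, monocytes, eosinophils and basophils.

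Weaning of beef calves ends suckling and maternal contact at once, and it is among the strongest social stressors in cattle husbandry. Stress hormones released by the adrenal gland act on circulating leukocytes through glucocorticoid and adrenergic receptors, and they alter both the traffic of cells between blood and tissue and gene expression within the cells. Receptors that sense microbial nucleic acids, receptors for cytokines and molecules that steer lymphocyte activation are all expressed in this mixed population. In such a mixture, fewer cells of a type and less RNA per cell cannot be told apart from gene counts alone. The study had also counted blood cells, and those counts were not used here.

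The deposited values were raw counts of reads per Ensembl gene, with 2933029 to 4119875 counts per library (median 3600326.5). At this depth, 3 counts in a library corresponded to 0.728 to 1.02 CPM (counts scaled to a common library size), and values below that level are at the limit of detection, with counting error alone considered. Expression is given below as CPM after TMM normalisation, and differences as log2 values, each with the standard error of edgeR's quasi-likelihood fit, in which calf was a block. The adjusted p is that of Benjamini and Hochberg over the 14786 genes tested.

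The libraries of a pair of calves stood apart from the rest. Among 11126 genes with a mean of at least 10 counts, control calf 1763 had 2500 genes at least 2-fold lower and 298 at least 2-fold higher on d 1 than on d 0, on the scale of log2(CPM + 1). Weaned calf 1773 had 1736 genes at least 2-fold higher and 186 at least 2-fold lower. In the remaining 10 calves, 39 to 437 genes were at least 2-fold higher and 22 to 125 at least 2-fold lower. A single principal component held 64.1% of the variance of these changes among calves, and the next held 5.84%. The d 1 library of calf 1763 was also the one least like its own d 0 library, with a correlation across genes of −0.51 after the mean of each day and treatment had been removed, and the change in its number of genes with a count, at a common depth of 2900000 counts, was −526. Together with the d 1 libraries of weaned calf 1773 and control calf 1759, it was 1 of 3 that were closer to the d 0 library of another calf (1789 for 1763, 1755 for 1773 and 1762 for 1759) than to their own. The d 1 libraries of 1789, 1755 and 1762 were each closest to their own d 0 library, and whether libraries were exchanged was not tested. The correlation with the own d 0 library was 0.556 for 1773 and 0.498 for 1759, both above the mean of 0.481 over the 12 calves, and it was lower, at 0.240 and 0.244, for weaned calves 1762 and 1769, which were closest to their own, so 1763 alone had a negative value. The opposite direction of the changes in 1763 and 1773 enters every difference between the treatments at d 1, so the differences of single genes and the medians of lists are given below also without both calves.

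**Figure D1:**
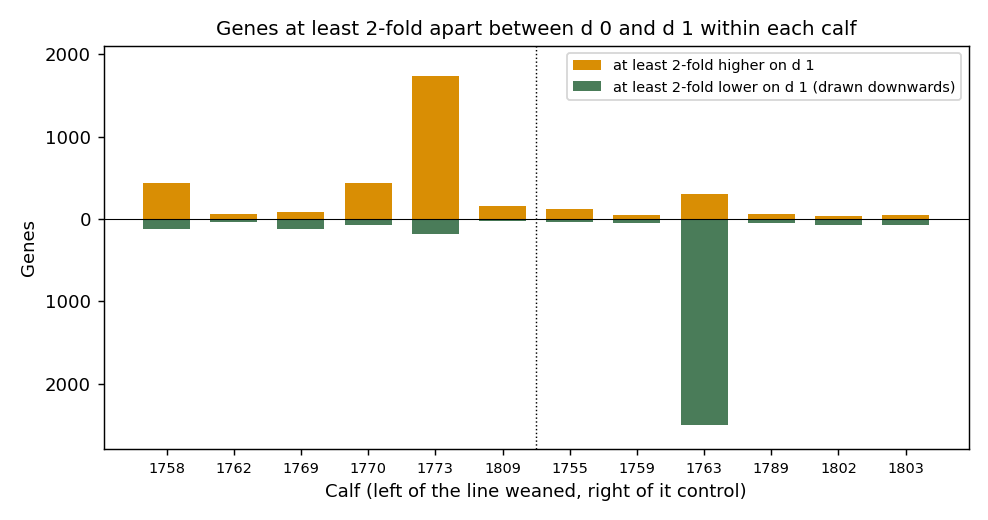
Number of genes, among 11126 with a mean of at least 10 counts, that were at least 2-fold higher (orange, upward) or lower (green, downward) on d 1 than on d 0 within each calf, with weaned calves left of the dotted line and control calves right of it. Calf 1763 (2500 genes lower) and calf 1773 (1736 genes higher) stood apart from the other 10 calves, in which no bar exceeded 437 genes.

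On d 1, the values of TLR7, SEC24A, FLT3, IARS and LARS were higher than on d 0 in most weaned calves and lower in most control calves. Those of IL5RA, KLRK1 and THBS1 were higher in every weaned calf with no common direction in control calves, and the transcriptional repressor HIC1 was lower in every weaned calf. None of these genes, and no other, passed the edgeR test across all genes. With edgeR, 0 of 14786 genes (0.0%) had an adjusted p under 0.05 for the difference between treatments, and the smallest adjusted p was 0.190. An unadjusted p under 0.05 was reached by 3301 genes (22.3%), of which 2029 (13.7%) were higher and 1272 (8.6%) lower in weaned relative to control calves. In a fit to all 48 libraries it was reached by 1617 of 15532 genes, 687 higher (4.42%) and 930 lower (5.99%). The excess of higher genes was thus reversed in that fit. DESeq2 gave 10 genes with an adjusted p under 0.05, 5 in each direction, and limma-voom gave 0. An exact permutation test of the treatment labels on the change per calf, which has 924 splits and a smallest possible p of 0.00216, gave 3011 genes (20.4%) with p under 0.05, of which 1683 were higher (11.4%) and 1328 lower (8.98%), and 112 genes at that smallest p, with an adjusted p of 0.233. The number at an unadjusted edgeR p under 0.05 was 1271 without calves 1763 and 1773, 2196 without 1763 alone, and 1745 without 1773 alone. It was 2056 without weaned calf 1770, and it was highest without weaned calves 1762 (4600) and 1769 (4363) and control calf 1759 (4045).

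Within weaned calves alone, 0 genes had an adjusted p under 0.05 with edgeR, but the smallest adjusted p was 0.0552, for HIC1, and 2930 genes (19.8%) had an unadjusted p under 0.05 (1683 higher, 11.4%, and 1247 lower, 8.43%, on d 1). DESeq2 gave 23 genes for the same change and limma-voom gave 0. Leaving out a single control calf, 1763, in a fit where all calves share the estimate of the spread, brought the edgeR count for the weaned change to 83 genes (39 higher and 44 lower), and leaving out weaned calf 1762 brought it to 7. HIC1 was among the genes in both cases, and 9 further genes with a symbol were among the 83: IL5RA, THBS1, CP110, SLC24A5, KLRK1, FOSB, AGPAT9, ABCA1 and TLR7. Within control calves, 0 genes had an adjusted p under 0.05 with edgeR, DESeq2 or limma-voom, and 588 (3.98%) had an unadjusted p under 0.05 with edgeR (196 higher, 1.33%, and 392 lower, 2.65%, on d 1). The weaned and control changes were estimated in the same fit, and whether one treatment had more moving genes than the other was not tested.

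The genes with an unadjusted p under 0.05 for the difference were then described by the treatment in which they moved, at the same unadjusted threshold within each treatment. Of the 3301 genes, 109 moved in opposite ways, with 80 higher in weaned and lower in control calves and 29 lower in weaned and higher in control calves. A further 2258 passed in one treatment only: in weaned calves 1099 were higher and 827 lower on d 1, and in control calves 91 were higher and 241 lower. The remaining 934 passed in neither. Over all 14786 genes, those of opposite direction were the same 80 (0.541%) and 29 (0.196%), since each of them had an unadjusted p under 0.05 for the difference. Genes passing in weaned calves only were 1600 higher (10.8%) and 1214 lower (8.21%) over all genes, and in control calves only 164 higher (1.11%) and 308 lower (2.08%). A small p for the difference nearly excludes a shared direction, so genes that moved the same way in both treatments can be counted only over all genes, where there were 7 (0.0473%). Without calves 1763 and 1773, the genes of opposite direction numbered 38 and those passing in one treatment only 936. With all 48 libraries these numbers were 27 and 805. They were 19 and 1609 without calves 1763 and 1809, which had libraries on different flowcells. The calves kept in that fit were not all on a single flowcell, so flowcell was not held constant between calves. The split also rested on single calves. Leaving out 1 control calf gave 29 genes of opposite direction for 1763, 36 for 1803, 241 for 1755 and 272 for 1759, and leaving out 1 weaned calf gave 39 for 1773, 49 for 1770, 59 for 1758, 63 for 1809, 166 for 1769 and 214 for 1762. Genes passing in one treatment only numbered 838 without 1773, 1023 without 1770, 1166 without 1758 and 3541 without 1762.

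The strictest form of opposite movement was a gene that was higher on d 1 in 6 of 6 weaned calves and lower in 6 of 6 control calves, or the reverse. There were 6 genes of the first kind (0.0406%) and 14 of the second (0.0947%), and POLE2 was the one among them with a symbol. Within one treatment, 502 genes (3.4%) were higher and another 502 (3.4%) lower in 6 of 6 weaned calves, and 210 (1.42%) were higher and 230 (1.56%) lower in 6 of 6 control calves. The changes of the 2 treatments did not overlap at all in 112 genes, of which 46 (0.311%) were higher and 66 (0.446%) lower in weaned calves, and 3 of these had a symbol: HIC1, SEC24A and POLE2.

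Gene symbols were available for 644 of the 25669 gene identifiers, 633 of them tested. They came from lists of genes that the study had found altered in these same samples. The named genes are therefore no random sample. Over the 633, the median log2 difference was 0.66 against 0.04 over all genes tested, 76.9% were higher in weaned calves against 52.6% (7778 genes higher and 7008, or 47.4%, lower), and 27.5% had an unadjusted p under 0.05 against 22.3%. A named gene or list that was higher in weaned calves is no independent evidence of that direction.

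**Figure D2:**
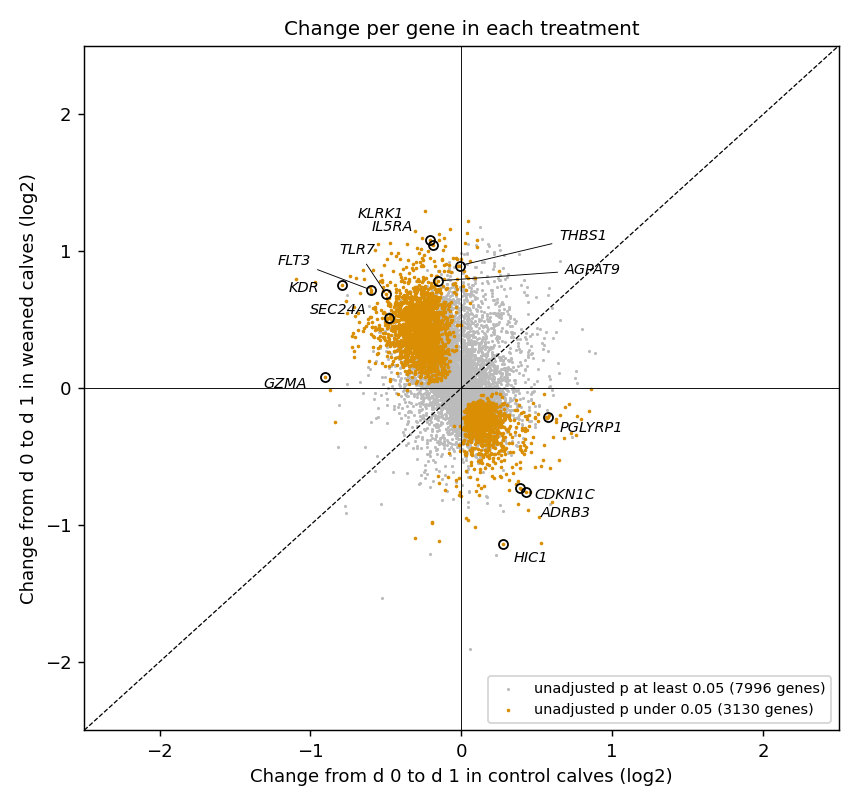
Change from d 0 to d 1 (log2, edgeR) in control calves (horizontal axis) and weaned calves (vertical axis) for each of 11126 genes with a mean of at least 10 counts, of which 1 lies outside the axes. Orange points are the 3130 genes with an unadjusted p under 0.05 for the difference between treatments, which lie away from the dashed line of equal change, mostly in the upper left (higher in weaned, lower in control) and lower right.

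HIC1 (ENSBTAG00000025130), a zinc finger repressor of transcription, had the smallest p of any gene with a symbol and was lower on d 1 in 6 of 6 weaned calves. HIC1 values in weaned calves ran from 23.4 to 63.9 CPM on d 0 (median 38.7) and from 10.8 to 25.6 CPM on d 1 (median 18.2). Control calves had HIC1 values from 9.99 to 27.1 CPM on d 0 (median 21.5) and from 10.6 to 42.4 CPM on d 1 (median 24.2). The changes per calf did not overlap between the treatments, since the 5 control calves with higher values and the 1 with a lower value (1789) all lay above every weaned calf. The log2 change of HIC1 was −1.14 ± 0.18 (SE, n = 6) in weaned and 0.28 ± 0.18 (n = 6) in control calves, a difference of −1.42 ± 0.25 (edgeR p = 2.57e-05, adjusted p = 0.190, exact permutation p = 0.00216). With DESeq2 its adjusted p was 0.00261, and over 22 further alternatives its adjusted p ran from 0.0717 to 0.580. Without calves 1763 and 1773 the difference was −1.31. On d 0, before housing, HIC1 was higher in weaned than in control calves by 0.88 on the log2(CPM + 1) scale (exact permutation p = 0.0216), and on d 1 the treatments differed by −0.47 (exact permutation p = 0.167).

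A further gene without a symbol, ENSBTAG00000009058, chosen after its values were seen, had the smallest unadjusted p of all genes. ENSBTAG00000009058 ran from 5.15 to 12.2 CPM on d 0 (median 8.03) and from 1.59 to 6.37 CPM on d 1 (median 3.46) in weaned calves. Control calves had ENSBTAG00000009058 values from 3.33 to 7.87 CPM on d 0 (median 5.23) and from 4.06 to 10.7 CPM on d 1 (median 8.58). It was lower in 6 of 6 weaned calves and higher in 6 of 6 control calves, although the levels of the treatments overlapped on each day. The difference was −1.66 ± 0.28 (SE, n = 6 per treatment, edgeR p = 1.59e-05, adjusted p = 0.190, exact permutation p = 0.00216), and it was −1.51 without calves 1763 and 1773. In the fit to all 48 libraries, this was the single gene with an adjusted p under 0.05, with a difference of −1.70 (edgeR adjusted p = 0.00682). With DESeq2 on the 24 libraries, ENSBTAG00000009058 was not among the 10 genes with an adjusted p under 0.05.

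The 8 genes with a symbol that were higher in weaned and lower in control calves, each at an unadjusted p under 0.05, were SEC24A, TLR7, FLT3, KDR, IARS, LARS, POLE2 and AADAT, and none of them passed the adjusted threshold. SEC24A (ENSBTAG00000018322) encodes a subunit of the COPII coat that selects cargo for export from the endoplasmic reticulum. SEC24A ran from 25.9 to 53.6 CPM on d 0 (median 35.6) and from 35.4 to 100.1 CPM on d 1 (median 47.6) in weaned calves. Control calves had SEC24A values from 34 to 77.9 CPM on d 0 (median 55.5) and from 20.6 to 72.3 CPM on d 1 (median 34.2). All 6 control calves were lower on d 1 and 5 of 6 weaned calves higher, and the changes did not overlap, the weaned calf nearest to the controls being 1762. The difference was 0.99 ± 0.26 (SE, n = 6 per treatment, edgeR p = 0.00144, adjusted p = 0.200, exact permutation p = 0.00216), and it was 0.63 without calves 1763 and 1773.

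TLR7 (ENSBTAG00000022161), the endosomal receptor for single-stranded RNA, ran from 37.1 to 110.4 CPM on d 0 (median 79.9) and from 88.5 to 261 CPM on d 1 (median 101) in weaned calves. Control calves had TLR7 values from 68.9 to 163 CPM on d 0 (median 108) and from 39.6 to 149 CPM on d 1 (median 70.5). Weaned calf 1773 on d 1 was far above the other weaned calves and control calf 1763 on d 1 was the lowest of its group, and the levels of the treatments overlapped on each day. TLR7 differed by 1.18 ± 0.32 (SE, n = 6 per treatment, edgeR p = 0.00153, adjusted p = 0.200, exact permutation p = 0.00433), with changes of 0.69 in weaned and −0.50 in control calves, and by 0.75 without both calves.

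FLT3 (ENSBTAG00000018572), the receptor tyrosine kinase of haematopoietic progenitors and dendritic cells, ran from 2.77 to 13.7 CPM on d 0 (median 8.06) and from 7.37 to 16.7 CPM on d 1 (median 13.5) in weaned calves. Control calves had FLT3 values from 5.81 to 12 CPM on d 0 (median 9.27) and from 3.10 to 11.6 CPM on d 1 (median 5.62). All 6 control calves were lower on d 1 and 5 of 6 weaned calves higher, the exception being 1762, and the d 1 levels of the treatments overlapped only through that calf and control calves 1755 and 1803. FLT3 differed by 1.32 ± 0.35 (SE, n = 6 per treatment, edgeR p = 0.00145, adjusted p = 0.200, exact permutation p = 0.00649), and by 1.18 without calves 1763 and 1773.

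KDR (ENSBTAG00000000782), a receptor for vascular endothelial growth factor, ran from 2.07 to 5.43 CPM on d 0 (median 4.60) and from 3.12 to 21.1 CPM on d 1 (median 5.54) in weaned calves. Control calves had KDR values from 3.78 to 10.4 CPM on d 0 (median 7.33) and from 2.15 to 5.54 CPM on d 1 (median 4.23). All 6 control calves were lower on d 1, whereas weaned calves split evenly, 1758, 1773 and 1809 being higher and 1762, 1769 and 1770 lower. KDR differed by 1.55 ± 0.44 (SE, n = 6 per treatment, edgeR p = 0.00246, adjusted p = 0.200, exact permutation p = 0.00649), and by 1.45 without calves 1763 and 1773.

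The aminoacyl-tRNA synthetases IARS (ENSBTAG00000000974) and LARS (ENSBTAG00000006765), which charge tRNA with isoleucine and leucine, had similar patterns. IARS ran from 52.9 to 102 CPM on d 0 (median 75.1) and from 79.4 to 198 CPM on d 1 (median 85.5) in weaned calves. Control calves had IARS values from 80.0 to 178 CPM on d 0 (median 111) and from 42.3 to 154 CPM on d 1 (median 70.2). The levels overlapped on both days, 5 of 6 weaned calves were higher on d 1 and 6 of 6 control calves lower. The difference was 1.00 ± 0.27 for IARS and 0.85 ± 0.26 for LARS (SE, n = 6 per treatment, exact permutation p = 0.00649 and 0.00866, edgeR adjusted p = 0.200 for both), and without calves 1763 and 1773 it was 0.59 and 0.46.

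POLE2 (ENSBTAG00000004931), a subunit of the replicative DNA polymerase epsilon, lay near the limit of detection and was named after its values had been seen. POLE2 ran from 0.554 to 4.72 CPM on d 0 (median 1.43) and from 2.19 to 6.16 CPM on d 1 (median 3.78) in weaned calves. Control calves had POLE2 values from 1.74 to 4.36 CPM on d 0 (median 3.59) and from 0.344 to 3.42 CPM on d 1 (median 1.81). It was higher in every weaned calf and lower in every control calf, with 39 and 90 counts in all on d 0 and d 1 in weaned calves and 71 and 36 in control calves. POLE2 differed by 2.22 ± 0.51 (SE, n = 6 per treatment, edgeR p = 0.00043, adjusted p = 0.200, exact permutation p = 0.00216), and by 1.74 without calves 1763 and 1773. AADAT (ENSBTAG00000010326), an aminotransferase of lysine and tryptophan breakdown, also named after its values had been seen, had only 0, 5, 10 and 1 counts in weaned calves on d 0 and d 1 and control calves on d 0 and d 1, so no fold is given.

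A pair of genes without a symbol, ENSBTAG00000014906 and ENSBTAG00000018517, were likewise singled out after their values were seen. ENSBTAG00000014906 ran from 141 to 348 CPM on d 0 (median 275) and from 349 to 629 CPM on d 1 (median 404) in weaned calves. Control calves had ENSBTAG00000014906 values from 264 to 503 CPM on d 0 (median 315) and from 169 to 489.9 CPM on d 1 (median 247). In weaned calves the lowest d 1 value lay above the highest d 0 value, and the change of every weaned calf lay above that of every control calf. The difference was 1.18 ± 0.24 (SE, n = 6 per treatment, edgeR p = 0.000121, adjusted p = 0.200, exact permutation p = 0.00216), and 0.92 without calves 1763 and 1773, and its DESeq2 adjusted p was 0.00616. ENSBTAG00000018517 differed by 1.08 ± 0.23 (edgeR p = 0.000156, adjusted p = 0.200, exact permutation p = 0.00433), with a DESeq2 adjusted p of 0.0119 and an edgeR adjusted p of 0.0477 once weaned calf 1769 was left out, and its difference was 1.02 without calves 1763 and 1773.

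A larger group of named genes was higher on d 1 in weaned calves, with an unadjusted edgeR p under 0.05 in weaned calves and not in control calves. IL5RA (ENSBTAG00000000273), the ligand-binding chain of the interleukin 5 receptor of eosinophils and basophils, ran from 2.66 to 13.7 CPM on d 0 (median 6.90) and from 8.48 to 34 CPM on d 1 (median 12.8) in weaned calves. Control calves had IL5RA values from 4.19 to 46.1 CPM on d 0 (median 10.3) and from 4.03 to 32.2 CPM on d 1 (median 11.7). Every weaned calf was higher on d 1, and control calves split evenly, but the changes of control calves 1759 and 1763 lay above that of weaned calf 1762, so the groups overlapped. IL5RA differed by 1.23 ± 0.32 (SE, n = 6 per treatment, edgeR p = 0.00112, adjusted p = 0.200, exact permutation p = 0.00649), with changes of 1.04 in weaned and −0.19 in control calves, and by 1.46 without calves 1763 and 1773.

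AGPAT9 (ENSBTAG00000017592), an acyltransferase of glycerolipid synthesis, ran from 14.6 to 30.6 CPM on d 0 (median 20.6) and from 19.6 to 61.5 CPM on d 1 (median 37.9) in weaned calves. Control calves had AGPAT9 values from 15.9 to 54.9 CPM on d 0 (median 27.1) and from 19 to 34 CPM on d 1 (median 25). The changes of 5 weaned calves lay close together and above all control calves, and the change of weaned calf 1769 lay among the controls. AGPAT9 differed by 0.94 ± 0.24 (SE, n = 6 per treatment, edgeR p = 0.00107, adjusted p = 0.200, exact permutation p = 0.00866), and by 0.84 without calves 1763 and 1773. ABCA1 (ENSBTAG00000020661), which exports cholesterol and phospholipid from cells and was named after its values had been seen, ran from 45.1 to 75 CPM on d 0 (median 67.2) and from 88.8 to 228 CPM on d 1 (median 114) in weaned calves. Control calves had ABCA1 values from 57.8 to 125 CPM on d 0 (median 91.7) and from 47.8 to 168 CPM on d 1 (median 90.4). The weaned values of d 0 and d 1 did not overlap, yet 5 of 6 control calves were also higher on d 1 and only 1763 was lower. ABCA1 differed by 0.98 ± 0.32 (SE, n = 6 per treatment, edgeR p = 0.00626, adjusted p = 0.200, exact permutation p = 0.0173), with changes of 1.08 in weaned and 0.10 in control calves, and the difference was 0.54 without calves 1763 and 1773.

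THBS1 (ENSBTAG00000002006), a secreted glycoprotein that binds platelets and matrix, ran from 59.8 to 140.2 CPM on d 0 (median 93.7) and from 71.8 to 246 CPM on d 1 (median 200.4) in weaned calves. Control calves had THBS1 values from 13.4 to 169 CPM on d 0 (median 123) and from 36.3 to 188 CPM on d 1 (median 113). All 6 weaned calves were higher on d 1, whereas 3 control calves were higher and 3 lower, 1803 among the former with a change larger than in 5 of 6 weaned calves. THBS1 differed by 0.91 ± 0.27 (SE, n = 6 per treatment, edgeR p = 0.0037, adjusted p = 0.200, exact permutation p = 0.0455), and by 0.81 without calves 1763 and 1773. KLRK1 (ENSBTAG00000004917), which encodes the activating receptor NKG2D of natural killer and cytotoxic T cells, ran from 3.25 to 12 CPM on d 0 (median 6.73) and from 6.59 to 28.8 CPM on d 1 (median 14.6) in weaned calves. Control calves had KLRK1 values from 4.86 to 21.8 CPM on d 0 (median 12.9) and from 2.75 to 32 CPM on d 1 (median 12.3). Again 6 of 6 weaned calves were higher and control calves split evenly, with 1763 much lower on d 1. KLRK1 differed by 1.29 ± 0.40 (SE, n = 6 per treatment, edgeR p = 0.0053, adjusted p = 0.200, exact permutation p = 0.00649), and by 0.83 without calves 1763 and 1773. Reads with several alignments had been discarded, so the counts of genes with close relatives, such as the lectin-like receptors, cover unique sequence only.

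**Figure D3:**
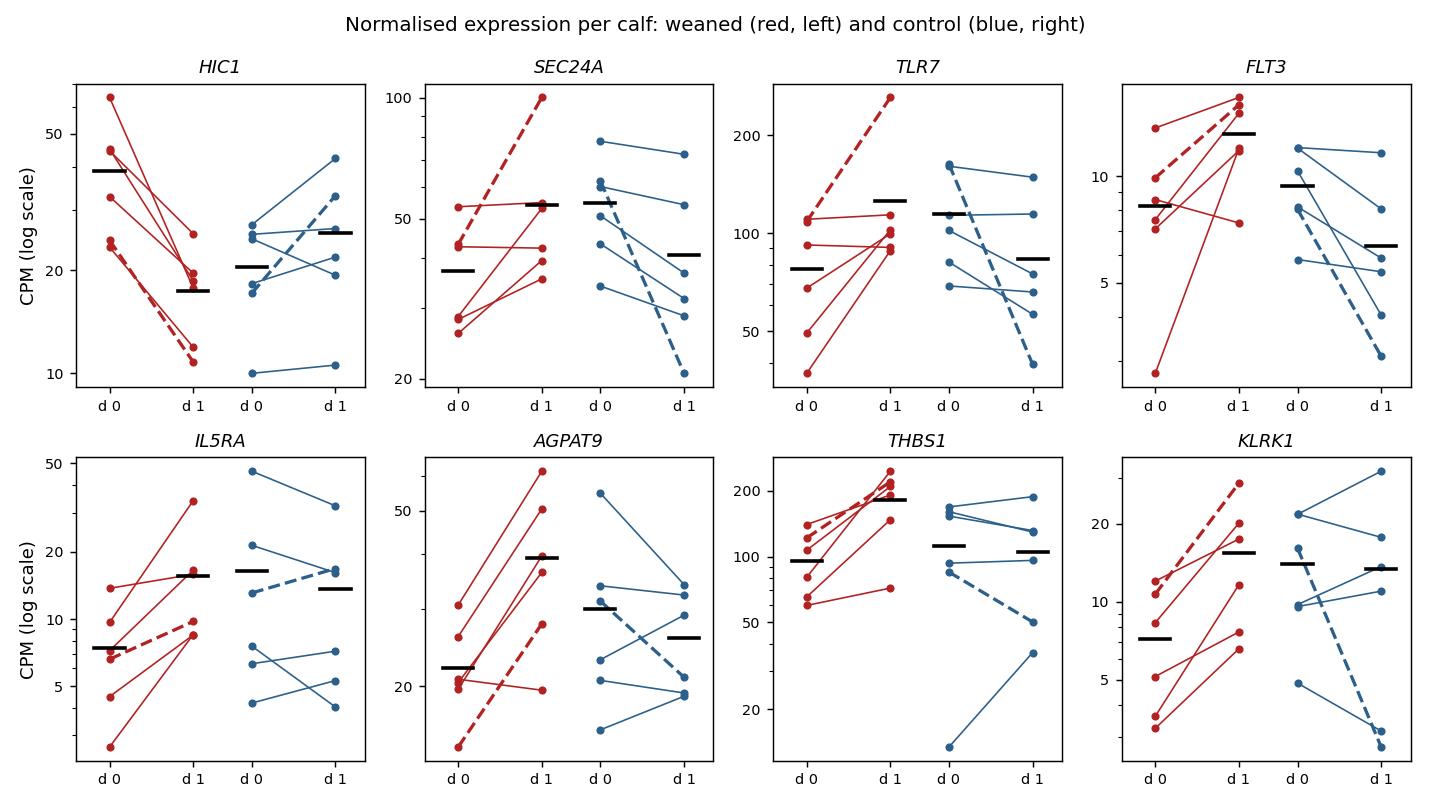
TMM-normalised CPM (logarithmic axis) on d 0 and d 1 for 8 genes, with a line for each of 6 weaned calves (red, left) and 6 control calves (blue, right), black bars for the group means, and dashed lines for weaned calf 1773 and control calf 1763. Every weaned calf was lower on d 1 for HIC1 and higher for IL5RA, THBS1 and KLRK1, whereas control calves were mixed for these genes, and calf 1763 showed the steepest decline of the controls for SEC24A, TLR7 and KLRK1.

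Further genes with small p in this direction followed the same course. CP110 (ENSBTAG00000003960), a centriole capping protein, and SLC24A5 (ENSBTAG00000004854), a potassium-dependent sodium and calcium exchanger, were higher in 6 of 6 weaned calves each, and the log2 differences were 1.16 ± 0.35 and 1.53 ± 0.47 (SE, n = 6 per treatment, exact permutation p = 0.00866 and 0.00433). CD80 (ENSBTAG00000018059), the costimulatory ligand of CD28 on antigen-presenting cells, differed by 1.04 ± 0.33 (exact permutation p = 0.0260), with 4 of 6 weaned calves higher. PSME4 (ENSBTAG00000020262), an activator of the proteasome, differed by 1.04 ± 0.32 (exact permutation p = 0.0195). All had an edgeR adjusted p of 0.200, and the changes of the treatments overlapped for each. For all 4, control calf 1763 had the lowest change of its group and weaned calf 1773 the highest of the weaned calves. Without both calves the differences were 0.65, 0.98, 0.63 and 0.56, each more than 1.5 times smaller than with them.

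Of 340 genes with a symbol that met the count criteria for naming, 44 had a negative difference, 5 of them with an unadjusted p under 0.05, and 296 a positive one, 135 of them with an unadjusted p under 0.05. Over all genes with a mean of at least 10 counts, 5474 of 11126 were lower, and over all genes tested 47.4% were lower, 8.6% with an unadjusted p under 0.05, and since the symbols came from genes chosen on these same samples, the split among them is not read as a result. The 5 lower genes were HIC1, CDKN1C, ADRB3, PTPRF and PGLYRP1. CDKN1C (ENSBTAG00000031184), an inhibitor of cyclin-dependent kinases, ran from 4.12 to 14.7 CPM on d 0 (median 7.01) and from 2.57 to 7.39 CPM on d 1 (median 4.32) in weaned calves. Control calves had CDKN1C values from 2.35 to 16.7 CPM on d 0 (median 3.25) and from 2.71 to 13 CPM on d 1 (median 5.30). It was lower in 5 of 6 weaned and higher in 4 of 6 control calves, the levels overlapped widely, and control calf 1802 was high on both days. CDKN1C differed by −1.12 ± 0.39 (SE, n = 6 per treatment, edgeR p = 0.0101, adjusted p = 0.200, exact permutation p = 0.0152), and by −0.78 without calves 1763 and 1773. ADRB3 (ENSBTAG00000017981), a beta-adrenergic receptor, differed by −1.19 ± 0.43 (edgeR p = 0.0131, adjusted p = 0.200, exact permutation p = 0.0606), with 5 of 6 weaned calves lower and control calves evenly split, and by −0.99 without calves 1763 and 1773. PTPRF (ENSBTAG00000000253), a receptor-type tyrosine phosphatase, differed by −0.45 ± 0.17 (edgeR p = 0.0149, adjusted p = 0.200, exact permutation p = 0.0455), and by −0.33 without both calves, and it was lower in 6 of 6 weaned calves.

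Other genes among the 15 named for a small p in this direction did not reach an unadjusted p of 0.05. They are not listed in order of p. ADRB1 (ENSBTAG00000001242), the beta-1 adrenergic receptor, was lower in 6 of 6 weaned calves and differed by −0.60 ± 0.36 (edgeR adjusted p = 0.307, exact permutation p = 0.0649), but by −0.37 without weaned calf 1758 and −0.52 without calves 1763 and 1773. ACE (ENSBTAG00000024950), the angiotensin-converting enzyme, differed by −0.63 ± 0.37 (edgeR adjusted p = 0.292, exact permutation p = 0.203), and by −0.39 without control calf 1763 and −0.31 without 1763 and 1773. ACHE (ENSBTAG00000001139), acetylcholinesterase, differed by −1.01 ± 0.78 (edgeR adjusted p = 0.418, exact permutation p = 0.390), and by −0.24 without calf 1769, −0.65 without 1763 and −0.96 without 1763 and 1773. ID1 (ENSBTAG00000016169), an inhibitor of helix-loop-helix transcription factors, had a weaned change of −1.22 ± 0.35 and a difference of −1.01 ± 0.50 (edgeR adjusted p = 0.233, exact permutation p = 0.177), which was −0.59 without weaned calf 1769 and −0.87 without calves 1763 and 1773. Further genes of this group were the nuclear receptor HNF4A (ENSBTAG00000012116, −0.66 ± 0.42), the transglutaminase TGM2 (ENSBTAG00000016208, −0.70 ± 0.47), the guidance ligand SLIT3 (ENSBTAG00000017746, −0.50 ± 0.35) and the collagen gene COL5A3 (ENSBTAG00000010179, −0.65 ± 0.54). Leaving out 1 calf moved all 4 of these more than 1.5 times: HNF4A was −0.42 and SLIT3 −0.31 without 1758, TGM2 −0.42 without 1770 and −1.23 without 1769, and COL5A3 −0.23 without 1803 and −1.04 without 1759. Without calves 1763 and 1773 the differences of HNF4A, TGM2, SLIT3 and COL5A3 were −0.43, −0.50, −0.57 and −0.51.

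A last group had unadjusted p values under 0.05 in control calves only. GZMA (ENSBTAG00000021958), the granule protease granzyme A of cytotoxic cells, ran from 4.14 to 25.9 CPM on d 0 (median 9.75) and from 2.19 to 33.4 CPM on d 1 (median 9.80) in weaned calves. Control calves had GZMA values from 11.4 to 30.2 CPM on d 0 (median 19.1) and from 4.62 to 18.4 CPM on d 1 (median 10.7). It was lower on d 1 in 5 of 6 control calves, while 4 of 6 weaned calves were higher, and the levels overlapped. GZMA differed by 0.99 ± 0.42 (SE, n = 6 per treatment, edgeR p = 0.0311, adjusted p = 0.205, exact permutation p = 0.0801), with changes of 0.08 in weaned and −0.90 in control calves, and by 0.66 without calves 1763 and 1773. TNFRSF11A (ENSBTAG00000007569), the receptor RANK, was lower in 6 of 6 control calves, from 51 counts in all on d 0 to 24 on d 1, and differed by 1.47 ± 0.51 (edgeR p = 0.0101, adjusted p = 0.200, exact permutation p = 0.00649), and by 1.18 without calves 1763 and 1773. DDX58 (ENSBTAG00000003366), the cytosolic RNA sensor RIG-I, differed by 0.66 ± 0.27 (edgeR adjusted p = 0.200, exact permutation p = 0.0606), and by 0.44 without control calf 1763 and 0.31 without 1763 and 1773. PGLYRP1 (ENSBTAG00000002635), a bactericidal protein of neutrophil granules, was higher in 5 of 6 control calves and differed by −0.79 ± 0.32 (edgeR p = 0.0241, adjusted p = 0.200, exact permutation p = 0.0216), and by −0.64 without calves 1763 and 1773.

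The difference between treatments on d 1 was compared with that on d 0, on the log2(CPM + 1) scale. Among the 2029 genes that were higher in weaned calves at an unadjusted p under 0.05, 98.9% had a d 0 level that was lower in weaned than in control calves, and 59.1% had a larger difference on d 0 than on d 1. Their median difference, weaned minus control, was −0.37 on d 0 and 0.33 on d 1. Among the 1272 lower genes, 98.5% were higher in weaned calves on d 0, and 48.0% had the larger difference on d 0, with medians of 0.18 and −0.18. The larger difference was on d 0 in 50.6% of all genes with a positive difference and 56.7% of all with a negative one. Over all genes with a positive difference 83.5% were of the opposite sign on d 0, and over all with a negative one 86.4%. The d 0 levels enter the change within a calf, so part of this opposition follows from how the difference is formed, and whether the treatments differed before housing beyond the spread among calves was not tested across genes. For IARS, weaned minus control was −0.63 (exact permutation p = 0.0303) on d 0 and 0.38 (exact permutation p = 0.279) on d 1. FLT3 had a difference of −0.24 on d 0 (exact permutation p = 0.502) and of 1.00 on d 1 (exact permutation p = 0.0108). FOSB, given below, had 0.12 on d 0 and 0.72 on d 1 (exact permutation p = 0.496 and 0.0173).

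Gene lists were read by counts and medians, beside the median of 0.04 over all genes and of 0.66 over the genes with a symbol, and no member of any list passed the adjusted threshold. An unadjusted p under 0.05 was reached by 22.3% of all genes and 27.5% of those with a symbol, and 52.6% and 76.9%, respectively, were higher. Of 40 genes of toll-like receptor signalling, 4 had a symbol and were tested, TLR3, TLR7, TLR10 and MAP3K7. All 4 were higher in weaned calves with an unadjusted p under 0.05, and the median difference was 1.02, with median changes of 0.69 in weaned and −0.28 in control calves, and 0.52 without calves 1763 and 1773. TLR3 (ENSBTAG00000008682), the endosomal receptor for double-stranded RNA, differed by 1.05 ± 0.38 (edgeR adjusted p = 0.200, exact permutation p = 0.0303), TLR10 (ENSBTAG00000014042), a receptor mainly of B cells, by 0.99 ± 0.42 (edgeR adjusted p = 0.205, exact permutation p = 0.0476), and MAP3K7 (ENSBTAG00000002625), the kinase TAK1 downstream of these receptors, by 0.82 ± 0.36 (edgeR adjusted p = 0.206, exact permutation p = 0.0736). Their levels overlapped between treatments on each day, and control calf 1763 had the lowest control change for all 4. Without calf 1763 the differences were 0.74, 0.63 and 0.52, and without both 1763 and 1773 0.65, 0.39 and 0.32, respectively.

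Among 48 cytokine receptors, 5 were tested, of which 4 were higher and 2 had an unadjusted p under 0.05, and the median was 1.23, or 0.86 without calves 1763 and 1773. They included IL5RA, above, and TGFBR1 (ENSBTAG00000018035), a receptor for transforming growth factor beta, which differed by 1.08 ± 0.35 (edgeR adjusted p = 0.200, exact permutation p = 0.0173), or by 0.62 without calves 1763 and 1773. Of 36 cytokines and chemokines, 12 were tested, 7 were higher and 5 lower, and 2 had an unadjusted p under 0.05, with a median of 0.42 over the 12 and −0.03 over the 5 with a mean of at least 10 counts. The median over the tested members moved with single calves, to 0.17 without 1763, 0.18 without 1789, 0.20 without 1755 and 0.65 without 1769, and it was 0.27 without 1763 and 1773. IL8 (ENSBTAG00000019716), a neutrophil attractant, had 15 and 66 counts in all on d 0 and d 1 in weaned calves and 25 and 16 in control calves. It was higher in only 3 of 6 weaned calves, 1758, 1770 and 1773, and differed by 2.29 ± 0.96 (edgeR p = 0.0291, adjusted p = 0.203, exact permutation p = 0.0952), or by 1.56 without calves 1763 and 1773. The single interferon-stimulated gene of 37 that was tested was DDX58, described above.

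Of 24 immediate early genes, whose transcription responds within minutes to stimulation of a cell, 3 were tested, FOSB and FOS with a positive difference and DUSP4 with a negative one, 1 of them with an unadjusted p under 0.05. Their median was 0.35, or 0.21 without weaned calf 1770, 0.18 without control calf 1789 and 0.27 without calves 1763 and 1773. FOSB (ENSBTAG00000008182), a subunit of the AP-1 transcription factor, ran from 18.5 to 37 CPM on d 0 (median 25.9) and from 30.5 to 64.2 CPM on d 1 (median 47.6) in weaned calves. Control calves had FOSB values from 17.4 to 29.6 CPM on d 0 (median 24.5) and from 19.1 to 48.5 CPM on d 1 (median 28.2). It was higher in 6 of 6 weaned and 5 of 6 control calves, so the direction was shared, and the levels overlapped on d 1. The change of FOSB was 0.86 ± 0.19 (SE, n = 6) in weaned and 0.25 ± 0.20 (n = 6) in control calves, and the difference was 0.61 ± 0.27 (edgeR p = 0.0385, adjusted p = 0.210, exact permutation p = 0.0606). It was 0.43 without control calf 1789, and 0.68 without calves 1763 and 1773. FOS (ENSBTAG00000004322), another AP-1 subunit, was higher in 6 of 6 weaned and 4 of 6 control calves, and differed by 0.35 ± 0.23 (edgeR p = 0.141, adjusted p = 0.337, exact permutation p = 0.223), or by 0.18 without control calf 1789, 0.21 without weaned calf 1770 and 0.27 without calves 1763 and 1773. DUSP4 (ENSBTAG00000044208), a phosphatase of mitogen-activated protein kinases, had the difference of largest size among the 3, −0.96 ± 0.48 (edgeR p = 0.0618, adjusted p = 0.239, exact permutation p = 0.0584), or −1.05 without calves 1763 and 1773. Its mean was below 10 counts, with 37 and 31 counts in all on d 0 and d 1 in weaned calves and 41 and 61 in control calves, and it was lower on d 1 in 3 of 6 weaned and higher in 5 of 6 control calves.

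Of 33 cell cycle genes 4 were tested, all higher, 1 with an unadjusted p under 0.05, and the median was 0.79, which was 0.49 without weaned calf 1773 and 0.26 without calves 1763 and 1773. CENPE (ENSBTAG00000009035), a kinetochore motor, differed by 0.84 ± 0.34 (edgeR adjusted p = 0.200, exact permutation p = 0.0519), and BUB1B (ENSBTAG00000007237), a kinase of the spindle checkpoint, by 0.75 ± 0.39 (edgeR adjusted p = 0.256, exact permutation p = 0.121), and without calves 1763 and 1773 by 0.52 and 0.38. Of 27 apoptosis genes 3 were tested, all higher, 2 with an unadjusted p under 0.05, and the median was 0.52, which was 0.30 without control calf 1763 and 0.19 without calves 1763 and 1773. APAF1 (ENSBTAG00000021661), the scaffold of the apoptosome, differed by 0.83 ± 0.37 (edgeR adjusted p = 0.208, exact permutation p = 0.0628), and the death ligand TNFSF10 (ENSBTAG00000018994) by 0.52 ± 0.25 (edgeR adjusted p = 0.223, exact permutation p = 0.0714). Without control calf 1763 they differed by 0.49 and 0.30, respectively, and without 1763 and 1773 by 0.29 and 0.19. Of 28 genes of T cell receptor signalling 2 were tested, both higher, neither with an unadjusted p under 0.05. The costimulatory receptor ICOS (ENSBTAG00000021596) differed by 0.56 ± 0.36 (edgeR adjusted p = 0.330, exact permutation p = 0.160), or by 0.26 without control calf 1763 and 0.10 without 1763 and 1773. Of 32 adhesion genes 1 was tested, it was higher with an unadjusted p under 0.05, and it had a mean below 10 counts. All 5 ribosomal protein genes with a symbol were higher, 1 with an unadjusted p under 0.05, with a median of 1.48, which was 2.41 without weaned calf 1762 and 2.76 without control calf 1803 and 1.73 without calves 1763 and 1773, and only 1 of them had a mean of at least 10 counts, with a difference of 0.52. No glucocorticoid response gene (of 25) and no MHC class II gene (of 17) had a symbol here, so neither group was analysed.

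Of 32 haemostasis genes 14 were tested, 12 higher and 2 lower, 5 with an unadjusted p under 0.05, and the median was 1.34 over all 14 and 0.62 over the 5 with a mean of at least 10 counts. Without calves 1763 and 1773 the median over the tested members was 0.90. PLA2G4A (ENSBTAG00000013298), the phospholipase that releases arachidonic acid from membranes, ran from 3.25 to 7.08 CPM on d 0 (median 4.21) and from 5.83 to 26.4 CPM on d 1 (median 7.58) in weaned calves. Control calves had PLA2G4A values from 3.15 to 13.3 CPM on d 0 (median 8.48) and from 1.38 to 14.6 CPM on d 1 (median 6.34). It was higher in 5 of 6 weaned and lower in 4 of 6 control calves, and the d 1 levels overlapped. PLA2G4A differed by 1.32 ± 0.44 (SE, n = 6 per treatment, edgeR p = 0.00845, adjusted p = 0.200, exact permutation p = 0.0152), or by 0.73 without calves 1763 and 1773. The 2 lower members were the type I collagen genes COL1A1 (ENSBTAG00000013103) and COL1A2 (ENSBTAG00000013472), which differed by −1.17 ± 1.53 (edgeR adjusted p = 0.652, exact permutation p = 0.517) and −1.43 ± 1.59 (edgeR adjusted p = 0.586, exact permutation p = 0.524). Their levels were widely spread among calves, from 1.37 to 182 CPM for COL1A1 in weaned calves on d 0, and single calves decided the size of the difference. It was −0.33 and −0.60, respectively, without weaned calf 1809, −0.29 and −0.56 without control calf 1759, −0.37 and −0.61 without 1803, and −2.01 and −2.45 without 1789. For COL1A1 it was −1.86 without 1773 and −1.98 without 1763, and for COL1A2 −0.91 without 1802, and without both 1763 and 1773 they differed by −2.61 and −2.64.

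A list of 54 genes, IL8 and its newer symbol CXCL8 counted once, that the study had named for d 1 was chosen on these same samples and is no independent evidence. Of its members 50 were tested, 39 were higher and 11 lower, and 19 had an unadjusted p under 0.05 (16 higher and 3 lower). The median was 1.34 over the 50, 1.3 when the 4 genes with a group at 0 counts were set to 3 counts over the group, and 1.27 over the 10 genes with a mean of at least 10 counts, and over the tested members it was 0.98 without calves 1763 and 1773. FLT3, KDR, IL5RA, SLC24A5, PLA2G4A, TNFRSF11A and IL8 belonged to it. CALCRL (ENSBTAG00000008483), the receptor for calcitonin gene-related peptide and adrenomedullin, differed by 1.11 ± 0.39 (edgeR p = 0.0114, adjusted p = 0.200, exact permutation p = 0.0152), or by 0.58 without calves 1763 and 1773.

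The labelled leukocyte makeup was checked against marker lists of 12 cell types, but a symbol was available for at most 40.0% of any list, so the check was void. The makeup had been measured by the study's own blood counts, which differed between treatments on d 1 for neutrophils, lymphocytes and platelets. Those counts were not used here. The available markers had a symbol because the study had listed them as altered in these same samples. Their sums are given as a description, with the mean change of their log2(CPM + 1) in each treatment. A permutation p was computed for each sum but is not read for that reason. Where a list had a single marker, the p printed is that of the gene. The part of the markers in the results above was not tested. For natural killer and cytotoxic cells, 3 of 18 markers were available (KLRD1, KLRK1 and GZMA, the last the most abundant, none of them at 0). Their summed level was 23.5 ± 13.2 CPM (mean ± SD) on d 0 and 37.2 ± 24.4 CPM on d 1 in weaned calves, and 40.5 ± 14 CPM and 29.5 ± 19.2 CPM in control calves. Single libraries ran from 14.5 to 71.6 CPM in weaned and 8.94 to 57.9 CPM in control calves on d 1, and these ranges overlapped. The mean change of the sum was 0.55 in weaned calves (5 higher and 1 lower on d 1) and −0.65 in control calves (1 higher and 5 lower). With single calves left out it ran from 0.45 without calf 1773 to 0.67 without calf 1758 in weaned and from −0.84 without calf 1755 to −0.32 without calf 1763 in control calves. The median difference of the 3 genes was 0.99, or 0.66 without both calves. KLRD1 (ENSBTAG00000000966), the CD94 chain of lectin-like receptors, differed by 0.98 ± 0.48 (edgeR adjusted p = 0.232, exact permutation p = 0.141), or by 0.49 without calves 1763 and 1773. FLT3, described above among the genes of opposite direction, was the single available marker of 12 for dendritic cells and is no separate evidence on them. For B cells 1 of 20 was available, STAP1 (ENSBTAG00000000962), an adaptor of B cell receptor signalling, which was higher in 6 of 6 weaned and 4 of 6 control calves and differed by 0.83 ± 0.34 (edgeR adjusted p = 0.200, exact permutation p = 0.0281), or by 0.38 without calves 1763 and 1773. For T cells 1 of 24 was available, TRAT1 (ENSBTAG00000000183), an adaptor of the T cell receptor, which differed by 0.64 ± 0.36 (exact permutation p = 0.136), or by 0.30 without control calf 1763 and 0.14 without 1763 and 1773.

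For eosinophils and basophils 6 of 15 markers were available, none at 0, with a median difference of 0.70, and 2 of the 6 had an unadjusted p under 0.05. The median was 0.42 without weaned calf 1773 and 0.35 without calves 1763 and 1773. Their summed level was 241 ± 68.1 CPM (mean ± SD) on d 0 and 269 ± 83.1 CPM on d 1 in weaned calves, and 285 ± 106 CPM and 327 ± 167 CPM in control calves. The mean change of that sum was 0.16 in weaned calves (4 higher and 2 lower on d 1) and 0.08 in control calves (3 higher and 3 lower). With single calves left out the change of this sum ran from 0.06 without calf 1769 to 0.27 without calf 1770 in weaned and from −0.09 without calf 1763 to 0.29 without calf 1789 in control calves. ALOX15 (ENSBTAG00000011990), a lipoxygenase abundant in eosinophils, made up most of that sum, and it differed by −0.01 ± 0.30 (edgeR p = 0.963, adjusted p = 0.980, exact permutation p = 0.983), or by 0.21 without both calves. The chains of the high-affinity IgE receptor, FCER1A (ENSBTAG00000012887) and MS4A2 (ENSBTAG00000020096), differed by 1.03 ± 0.43 (edgeR adjusted p = 0.201, exact permutation p = 0.0368) and 0.75 ± 0.37 (edgeR adjusted p = 0.232, exact permutation p = 0.0584), and without calves 1763 and 1773 by 0.63 and 0.47. The transcription factor GATA1 (ENSBTAG00000003184) differed by −0.39 ± 0.34 (edgeR adjusted p = 0.468, exact permutation p = 0.370), or by −0.17 without control calf 1763, −0.26 without weaned calf 1770 and −0.01 without 1763 and 1773. The eosinophil receptor IL5RA and the IgE receptor chains thus had positive differences, whereas GATA1 had a negative one and the sign of ALOX15 varied with the calves included. For platelets, which may accompany leukocytes, 4 of 15 markers were available, none at 0, with SELP the most abundant and a summed level of 13.5 ± 4.77 CPM (mean ± SD) on d 0 and 22.5 ± 29 CPM on d 1 in weaned calves, and 13.6 ± 3.41 CPM and 10.4 ± 2.31 CPM in control calves. Its mean change was 0.19 in weaned calves (2 higher and 4 lower on d 1) and −0.35 in control calves (1 higher and 5 lower), and weaned calf 1769 alone went from 17.9 to 81.3 CPM. With single calves left out the weaned mean ran from −0.19 without calf 1769 to 0.33 without calf 1809, being 0.32 without 1770, and the control mean ran from −0.43 without calf 1802 to −0.24 without calf 1755. The median difference of the 4 genes was 0.22, but −0.22 without weaned calf 1769, −0.08 without control calf 1759, 0.02 without 1755, 0.53 without 1789 and 0.76 without 1763 and 1773, so its sign rested on single calves. SELP (ENSBTAG00000020755), the adhesion receptor P-selectin, differed by 0.58 ± 0.42 (edgeR adjusted p = 0.381, exact permutation p = 0.353) and PPBP (ENSBTAG00000032425), a platelet chemokine, by 1.44 ± 0.71 (edgeR adjusted p = 0.233, exact permutation p = 0.318), and without weaned calf 1769 by 0.11 and 0.63. Without calves 1763 and 1773 they differed by 0.90 and 1.64.

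Neutrophil granule genes of precursor cells were available for 3 of 20 markers, none at 0, with PGLYRP1 the most abundant, and a summed level of 8.36 ± 3.46 CPM (mean ± SD) on d 0 and 7.51 ± 1.76 CPM on d 1 in weaned calves, and 9.16 ± 9.73 CPM and 13.1 ± 14.9 CPM in control calves. Its mean change was −0.06 in weaned calves (3 higher and 3 lower on d 1) and 0.46 in control calves (5 higher and 1 lower), and with single calves left out it ran from −0.16 without calf 1762 to 0.05 without calf 1773 and from 0.32 without calf 1755 to 0.56 without calf 1803, respectively. The median difference over the 5 gene identifiers of these markers was −0.54, or −0.64 without both calves, and 0.44 without control calf 1802. This median was 0.37 with DESeq2, −0.15 with limma-voom and −0.90 without weaned calf 1769, so its sign also depended on the tool. A single marker of 20 was available for mature neutrophils and 3 of 13 for erythroid cells. The mature neutrophil marker, ALPL, had a mean change of 0.10 in weaned calves (3 higher and 3 lower on d 1) and 0.01 in control calves (3 higher and 3 lower), and the weaned mean ran from −0.18 without calf 1762 to 0.40 without calf 1769. Weaned calf 1762 went from 91 to 261 CPM of ALPL and 1769 from 70.1 to 26.2 CPM, and the control mean ran from −0.05 without calf 1802 to 0.12 without calf 1759. The erythroid sum had a mean change of −0.05 in weaned calves (2 higher and 4 lower on d 1) and 0.10 in control calves (5 higher and 1 lower). Weaned calf 1769, in which the platelet sum was also higher, went from 14.9 to 67.3 CPM, and the weaned mean was −0.48 without it and 0.15 without calf 1770, while the control mean ran from −0.09 without calf 1802 to 0.29 without calf 1755. The sign of the weaned mean thus rested on single calves for platelet, neutrophil and erythroid markers alike. No marker of monocytes, gamma delta T cells or plasma cells was available. As a measure of library makeup, the share of counts in the 100 most abundant genes had a change of −0.341 ± 0.227 percentage points (mean ± SD, n = 6) in weaned calves and of 0.115 ± 0.251 in control calves (exact permutation p = 0.00866, 1 of 2 such measures). That change was 0.527 in control calf 1763 and −0.201 to 0.196 in the other control calves. It was −0.517 in weaned calf 1773 and −0.506 to 0.072 in the other weaned calves. The number of genes with a count at a common depth was higher on d 1 by 189 ± 236 in weaned and by 2.00 ± 269 in control calves (exact permutation p = 0.245). Calf 1763 had −526 and the other control calves 13 to 214, so the low control mean rested on that calf. Weaned calf 1773 had 478 and the other weaned calves −131 to 346. The part of these shifts in the differences between genes was not tested.

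The same difference was computed for d 2 and d 7 in a fit to all 48 libraries with 15532 genes tested. These differences share the d 0 libraries with that of d 1, so they are given side by side and no overlap is counted. An unadjusted edgeR p under 0.05 was reached by 1617 genes (10.4%) for d 1, 687 of them higher (4.42%) and 930 lower (5.99%) in weaned calves. For d 2 it was reached by 1130 genes (7.28%), 658 higher (4.24%) and 472 lower (3.04%), and for d 7 by 5958 (38.4%), 3167 higher (20.4%) and 2791 lower (18%). With the adjusted p there was 1 gene for d 1 (0.00644%) and 0 for d 2 and d 7 with edgeR, the other tools not being run on all 48 libraries. The direct test of d 1 against d 2, in which d 0 cancels, gave 0 genes at an adjusted edgeR p under 0.05 and 218 (1.4%) at an unadjusted p under 0.05, of which 70 were higher (0.451%) and 148 lower (0.953%) on d 1. The test of d 1 against d 7 gave 0 and 645 (4.15%), with 338 genes higher (2.18%) and 307 lower (1.98%) on d 1, and a smallest adjusted p of 0.234. This smallest value belonged to FOSB, for which the difference between weaned and control calves was 0.58, 0.68 and −1.08 on d 1, d 2 and d 7, all relative to d 0 (d 1 minus d 7 1.66 ± 0.33, edgeR adjusted p = 0.234). Without control calf 1763, FOSB was the single gene with an adjusted p under 0.05 for d 1 against d 7 (adjusted p = 0.0147). FOS had 0.34, 0.25 and −0.38 on d 1, d 2 and d 7 (d 1 minus d 7 0.72 ± 0.30, edgeR adjusted p = 0.905). SELP had 0.65, 0.47 and −0.94 (d 1 minus d 7 1.60 ± 0.47, edgeR adjusted p = 0.905), and PPBP 1.40, 0.52 and −0.61 (d 1 minus d 7 2.02 ± 0.71, edgeR adjusted p = 0.905).

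In the same order of days, HIC1 had −1.51, −1.10 and −1.44, and ENSBTAG00000009058 had −1.70, −0.87 and −1.19. SEC24A had 0.95, 0.61 and 1.25, TLR7 1.16, 0.99 and 1.10, and FLT3 1.33, 1.37 and 0.80. IL5RA had 1.29, 1.34 and 0.28, and THBS1 had 0.90, 1.40 and −0.14, the last of opposite sign. For none of HIC1, SEC24A, TLR7, FLT3, IL5RA and THBS1 did d 1 differ from d 2 or d 7 at an adjusted edgeR p under 0.05.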

How the data were processed

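Total leukocyte RNA of 12 calves was sequenced as 36 bp single reads. The authors aligned reads with Bowtie to the Btau4.0 genome without mismatches, kept 1 read per position, suppressed reads with several alignments, and counted reads per Ensembl gene with HTSeq. The deposited values were raw counts per gene, with no normalisation, and the strand setting of the counting was not stated. Keeping 1 read per position limits the counts of abundant genes. Groups followed the labels for treatment, day and calf. The members and gene lists were chosen with earlier results of these data known.

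Genes whose sum over the 24 libraries reached 10 counts entered the fit in R 4.3.3 with edgeR 4.0.16, with TMM normalisation, a quasi-likelihood F-test and calf as a block, and the contrast was the d 0 to d 1 change in weaned minus that in control calves. Calls required an adjusted p under 0.05, with and without a 2-fold minimum. DESeq2 1.42.0 and limma-voom (limma 3.58.1) were run as alternatives. Exact permutation tests were two-sided, on the change per calf in log2(CPM + 1), with Python 3.11.15. Genes were named by the 15 smallest p in each direction among those with a symbol, a mean of at least 10 counts and no library holding over 50% of the counts, with up to 6 members of each list, and the 7 genes said to be chosen after their values were seen were added, and not all genes so named are described. Alternatives covered the normalisation, the filter, the tool, the block, the libraries, the flowcell and each calf in turn. Leaving out calves 1763 and 1773 together, and using the share of reads kept as a covariate, were chosen after seeing the data, as were leaving out each calf for the marker sums and recounting the unadjusted genes and the direction classes under every alternative. The labels of calf were checked on the counts. Of 12 d 1 libraries, 9 were closest to the d 0 library of the same calf, all but those of calves 1763, 1773 and 1759. The mean correlation was 0.481 over the same-calf pairs. An exchange of d 0 and d 1 within a calf could still leave that calf closest, so the labels of day were not checked. Symbols came from human orthologs in the study's lists, since no table of Ensembl identifiers and symbols was at hand, and no sequences or positions were available. Counting error is only part of the spread: between libraries of a group, the chi-square per degree of freedom was 3.08 to 44.4 over 60 pairs.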

Additional observations from a re-analysis of the deposited data

Results flagged for a closer look

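Within each treatment, the change of a gene from d 0 to d 1 was checked for a calf far from the other 5, by the gap to the nearest calf divided by the whole range, with a critical value of 0.625 for 6 calves. Of 130 groups 18 were flagged, 11 of them through control calf 1763. The critical value is meant to flag about 1 in 20 independent groups by chance. Many of these genes were chosen by their values and all share the same calves, so the number flagged is not set against that rate. The gap of calf 1763 was 0.7523 of the range for SEC24A, where its change was −1.54 and the other control calves ran from −0.46 to −0.11, and 0.7351 for TLR7 (−2.02 against −0.52 to 0.01). It was 0.8828 for ABCA1, with a change of −1.23 against 0.24 to 0.43. For PSME4 the ratio was 0.7262, for TLR10 0.7304, for APAF1 0.7688 and for PLA2G4A 0.6296, in each case with calf 1763 as the lowest control calf. TRAT1 had a ratio of 0.6317 and ICOS of 0.652, both with calf 1763 lowest, and GATA1 of 0.6276 with calf 1763 highest. The number of genes with a count gave 0.7284, with −526 in calf 1763 and 13 to 214 in the other control calves.

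Among weaned calves, the ratio was 0.78 for ADRB1 through calf 1758 (−1.32 against −0.33 to −0.06) and 0.8253 for AGPAT9 through calf 1769 (−0.08 against 0.80 to 0.99). CP110 gave 0.6549 through calf 1773, COL5A3 0.6344 through calf 1762 and COL1A1 0.6576 through calf 1809, whose change was −7.17. ENSBTAG00000038663, chosen after its values were seen, had 27 counts in calf 1758 on d 0, 0 in the other weaned calves on either day and 0 in calf 1758 on d 1, which gave a ratio of 1.0, and 0.7486 in control calves through calf 1759 (0.31 against −0.10 to 0.00). Its exact permutation p for the difference between treatments was 0.545, and its edgeR difference without calf 1758 was −0.04.

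Among the genes described, 2 had changes in which every weaned calf moved one way and every control calf the other. POLE2 differed by 2.2153 (edgeR adjusted p = 0.200) and ENSBTAG00000009058 by −1.6604 (edgeR adjusted p = 0.190), so neither passed the test of the difference over all genes.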

How the results depend on the processing

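For the 63 described genes, 1432 of 1444 recomputed differences kept their direction without an adjusted p under 0.05, 5 gained one and 7, all of ALOX15, reversed. The 5 were HIC1, ENSBTAG00000014906 and ENSBTAG00000018517 with DESeq2, ENSBTAG00000018517 without calf 1769, and ENSBTAG00000009058 with all 48 libraries. Of 189 permutation tests 185 stayed on their side of 0.05, GZMA had p = 0.0498 and DUSP4 p = 0.0455 with a pseudocount of 4, and CENPE p = 0.0411 with 0.25. ALOX15, at −0.01, was 0.17 with only the calves whose own libraries shared a flowcell, and 0.064 with the share of reads kept as covariate. It was 0.21 without calves 1763 and 1773. With single calves left out it ran from −0.29 to 0.12 (0.11 without 1770, 0.04 without 1773, 0.12 without 1763 and 0.08 without 1802). Its permutation p was 0.991 with RLE size factors, with a positive difference.

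The interaction count of 0 became 10 with DESeq2 (5 of them at least 2-fold), 1 with all 48 libraries (at least 2-fold), and 0 to 1 with single calves left out, the 1 without calf 1769. The weaned count of 0 became 23 with DESeq2, 9 with no filter on low counts and 1 with all 48 libraries. It was 18 with only the calves whose own libraries shared a flowcell, and 5 with the share of reads kept as covariate. It was 10 without calves 1763 and 1773, and 0 to 83 with single calves left out. The control count and that of d 1 against d 2 were 0 under every alternative run, and that of d 1 against d 7 was 0 to 1 with single calves left out. With no replicate block, that is, with the pairing of libraries by calf ignored, the 3301 genes at an unadjusted p under 0.05 were 681, those of opposite direction 7 and those in one treatment only 289. With all 48 libraries these counts were 1617, 27 and 805, and without calves 1763 and 1773 they were 1271, 38 and 936. With only the calves whose own libraries shared a flowcell, the first was 1890 and the second 19. With the share of reads kept as covariate the second was 197. With single calves left out they ran from 1745 to 4600, from 29 to 272 and from 838 to 3541. The cause of these shifts was not tested.

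Of 299 recomputed list medians over 13 lists, 282 moved by less than the SD among calves of the change in the list median. That SD includes calves 1763 and 1773, so it is a wide limit. A median within it may still have fallen by much without them, as given for the lists above. With edgeR's filterByExpr filter, the medians were −0.034 for cytokines and chemokines (0.42), 0.76 for haemostasis (1.34), 0.51 for ribosomal proteins (1.48) and 1.01 for platelet markers (0.22), since fewer genes were tested. With single calves left out the platelet median ran from −0.22 (without 1769) to 0.53 (without 1789), and it was −0.08 without 1759. With the share of reads kept as covariate the median was 0.80 for cytokine receptors (1.23) and 1.07 for the study's d 1 genes (1.34), and without calves 1763 and 1773 it was 0.86 and 0.98, and 0.90 for haemostasis. Neutrophil granule markers (−0.54) gave 0.37 with DESeq2, −0.15 with limma-voom and −0.90 to 0.44 with single calves left out, and ribosomal proteins 1.16 to 2.76. Calves 1763 and 1809 had libraries on different flowcells.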
